A study of Homo sapiens with 18 samples.

Results

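MHC class II genes and CD74 were followed across 18 RNA-seq libraries of HCC827 and H1975, established cell lines of human lung adenocarcinoma with mutant EGFR. The members are 10 genes, taken by symbol from the 58444 genes counted in all files: the transactivator CIITA, the invariant chain CD74, and the class II chains HLA-DRA, HLA-DRB1, HLA-DPA1, HLA-DPB1, HLA-DQB1, HLA-DMA, HLA-DMB and HLA-DOA. Each line contributed 3 independent RNA samples, and each was sequenced as short reads (Illumina), as nanopore cDNA (Oxford Nanopore PromethION, ONT) and as PacBio Iso-Seq, which makes 6 groups of 3 libraries. The labels give neither line a drug, cytokine or genetic treatment, so the comparison is HCC827 against H1975 within a platform. They state that the cells were grown independently to near confluency in medium with fetal calf serum. Each line derives from 1 tumour, so p-values speak of these samples of these lines only.

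MHC class II molecules are pairs of an alpha and a beta chain that show peptides from endosomes to CD4+ T cells. HLA-DR, HLA-DP and HLA-DQ are the presenting molecules, HLA-DM loads peptide onto them, HLA-DO restrains HLA-DM, and CD74 escorts new pairs to endosomes while filling their groove. Professional antigen-presenting cells make class II all the time, whereas in many epithelial cells CIITA, and with it class II, is switched on by interferon gamma. CIITA binds no DNA itself. It joins RFX, CREB and NF-Y proteins that sit on X and Y boxes in class II promoters.

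Gene totals were 81467393 to 116497461 counts in ONT libraries and 37795 to 54339 in PacBio libraries. Illumina libraries had 33362018 to 40200473 counts, except HCC827 replicate 2 with 10020699. The file header of Illumina HCC827 replicate 3 mentions a repeat, and that of PacBio HCC827 replicate 3 mentions poly(A). Leaving out either of these Illumina libraries changed no member's call. Levels below are counts or CPM (counts normalized to the effective library sizes of each platform's own fit). Differences are log2 folds of HCC827 over H1975 with their standard error (SE) and the adjusted p of edgeR's two-sided quasi-likelihood test. Genes with an adjusted p below 0.05 over all genes tested are named as called. Epithelial markers were high in both lines: EPCAM, KRT8, KRT18, KRT19 and CDH1 summed to 7730 to 12300 CPM in HCC827 and 2380 to 2570 CPM in H1975 Illumina libraries.

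Promoter windows were searched for letters of the X and Y boxes. RefSeq (GRCh38.p14) promoter windows, reaching from 250 bases before to 50 after a gene's start, were matched for 8 of the 10 members, with 9 windows in all. The stretches that follow are read along each gene's own strand. Capitals mark a Y box (ATTGG or its reverse complement CCAAT) and the core of an X box (AGNNACNGAT on either strand), a pattern worked out from these same windows. The 6 genes shown are those whose stretch touches no annotated exon.
HLA-DRB1 (chr6:32589868-32589937, minus strand): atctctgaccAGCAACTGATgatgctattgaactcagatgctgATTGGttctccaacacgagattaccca
HLA-DQB1 (chr6:32666719-32666788, minus strand): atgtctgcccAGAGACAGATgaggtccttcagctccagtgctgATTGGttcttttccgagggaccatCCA
HLA-DMA (chr6:32953151-32953220, minus strand): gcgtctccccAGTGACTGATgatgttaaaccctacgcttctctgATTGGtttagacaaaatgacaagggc
HLA-DOA (chr6:33009633-33009702, minus strand): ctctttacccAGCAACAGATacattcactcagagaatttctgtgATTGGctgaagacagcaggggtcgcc
HLA-DMB (chr6:32941057-32941126, minus strand): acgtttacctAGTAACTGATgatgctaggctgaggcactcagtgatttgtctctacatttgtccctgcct
HLA-DPB1 (chr6:33075881-33075950, plus strand): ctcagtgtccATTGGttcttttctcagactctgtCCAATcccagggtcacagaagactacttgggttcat

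In HLA-DRB1 and HLA-DQB1 23 bases separate the X core from the Y box, and in HLA-DMA and HLA-DOA 24 bases. The capitals that end the HLA-DQB1 stretch open another CCAAT. The HLA-DMB window holds 3 X cores and 1 Y box, but no Y box 10 to 30 bases after an X core on the same strand. Windows can hold more motifs than the stretch shows, as that of HLA-DRB1 does with 2 X cores and 2 Y boxes. The HLA-DPB1 window matches the Y box at 2 places and that of CD74 at 1, with no X core, and neither window of HLA-DPA1 matches either motif. The search misses X boxes that depart from these letters, so no match does not mean that a promoter lacks one. Of 5 other class II genes with a window, 1 holds the X core. Of 35116 windows of this length, 34.6% hold a Y box, 2.29% the X core, and 0.0712% (25 windows) an X core followed 10 to 30 bases later by a Y box on the same strand. These letters are a description of the windows. HLA-DRB1, higher in HCC827, and HLA-DMA, which was not called, hold the same arrangement.

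Of the 10 members, 8 had enough counts to be tested in Illumina and the same 8 in ONT libraries. In each platform 7 were called, 2 higher and 5 lower in HCC827. Calls were common: 74.1% of 25711 tested genes were called in Illumina data (36.1% higher and 38.0% lower) and 62.7% of 27366 in ONT data (31.1% higher and 31.6% lower). The median log2 fold of the tested members was -1.98 in Illumina and -1.59 in ONT data, beside -0.04 and -0.02 over all genes tested. Read against this background, the counts of calls are no result about the members, and what follows is the size and direction of each. CD74, HLA-DRA, HLA-DPA1 and HLA-DPB1 fell several-fold in HCC827, and HLA-DRB1 and HLA-DMB rose. Counts assigned to CIITA fell by less, but its exons overlap those of DEXI and other genes, so the size of its own fall is uncertain.

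**Figure D1:**
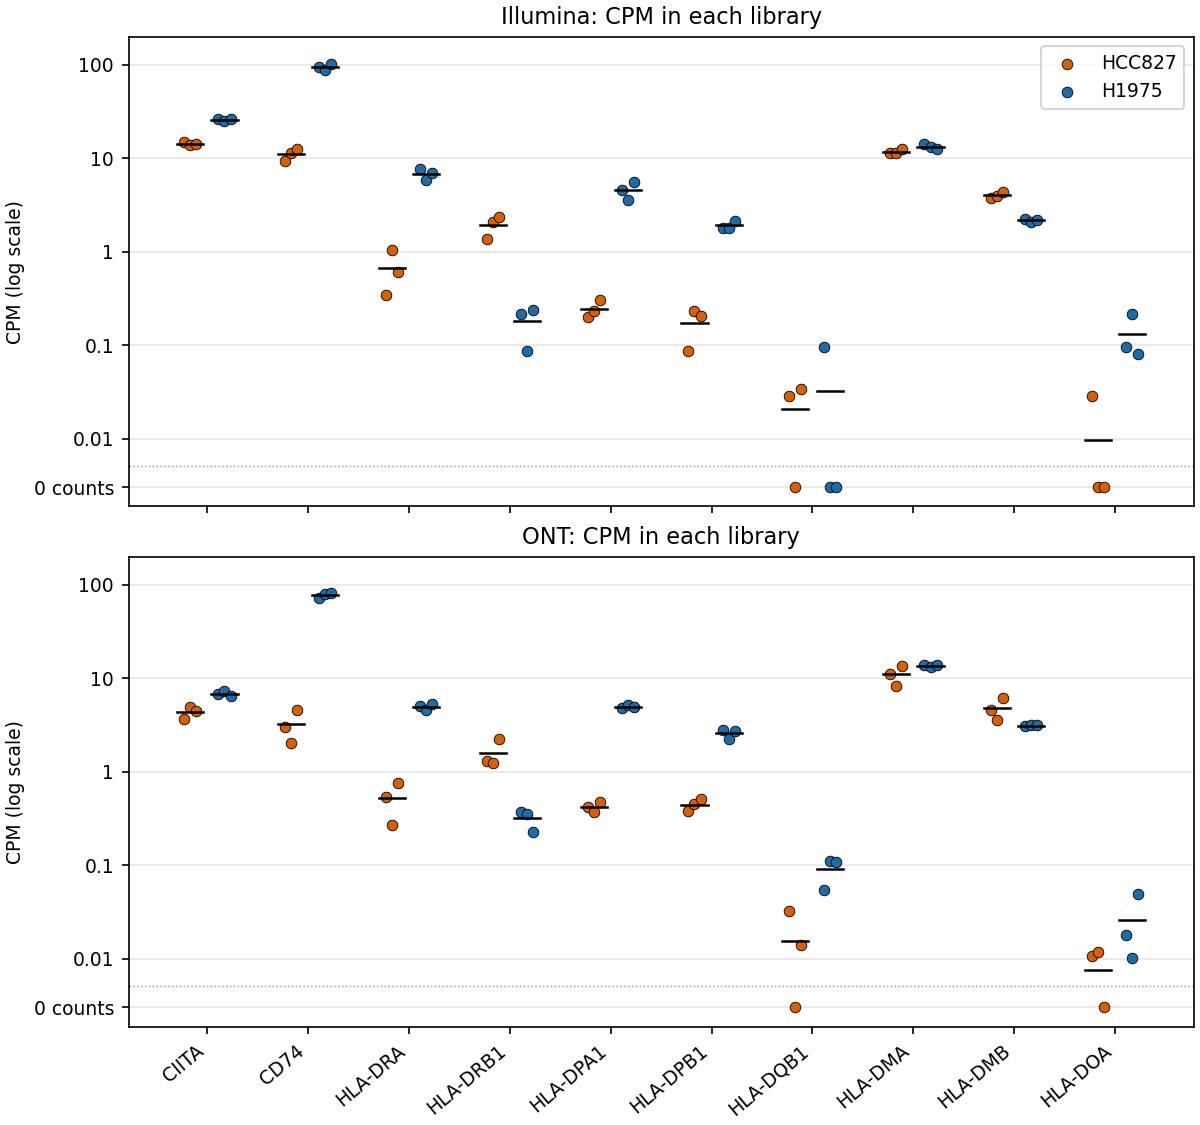
CPM of the 10 genes (log scale) in each library, with Illumina above and ONT below; each point is a library, the bar is the mean of 3, and points under the dotted line had 0 counts. CD74, HLA-DRA, HLA-DPA1 and HLA-DPB1 sit lower in HCC827, HLA-DRB1 sits higher, and HLA-DMA lies close together in both lines.

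CIITA, the master regulator of class II transcription, lies on chromosome 16 (10866222 to 10943021, plus strand; all gene positions are those of GENCODE on GRCh38). It had 521, 120 and 416 Illumina counts in HCC827, against 1095, 1154 and 993 in H1975. This was 14.4 ± 0.562 CPM in HCC827 and 25.98 ± 0.752 CPM in H1975 (SD, n = 3 each), and the groups did not overlap. The log2 fold was -0.85 ± 0.09 (edgeR adjusted p = 1.51e-06). ONT libraries gave 342, 421 and 319 counts in HCC827 and 753, 722 and 649 in H1975, a log2 fold of -0.64 ± 0.16 (edgeR adjusted p = 0.00505). Counts assigned to CIITA were thus of the same order in both lines.

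The CIITA counts carry a limit of their own. DEXI, a gene on the opposite strand, shares 2424 exonic bases with CIITA, and the sources used here do not give the strand setting of the counting. A further annotated gene on CIITA's own strand shares 2378 exonic bases, so CIITA counts are uncertain whatever that setting. DEXI had 921 Illumina counts in HCC827 and 2356 in H1975 over 3 libraries, where CIITA had 1057 and 3242. In ONT libraries the count of DEXI was 0.943 to 0.978 of that of CIITA in HCC827 and 0.901 to 0.935 in H1975. DEXI fell as well, by a log2 fold of -0.60 ± 0.10 in Illumina data (edgeR adjusted p = 8.85e-05) and -0.58 ± 0.16 in ONT data (edgeR adjusted p = 0.00977). The share of the CIITA difference that belongs to DEXI or to other overlapping genes was not tested.

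CD74, the invariant chain, lies on chromosome 5 (150401637 to 150412969, minus strand), outside the MHC. It had 328, 98 and 370 Illumina counts in HCC827 libraries, against 3906, 4047 and 3852 in H1975 libraries. This is 11.1 ± 1.56 CPM in HCC827 and 94.9 ± 7.18 CPM in H1975 (SD, n = 3 each). Every HCC827 library lay far below every H1975 library, and the log2 fold was -3.10 ± 0.12 (edgeR adjusted p = 3.67e-11).

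ONT libraries held 279, 173 and 328 CD74 counts in HCC827 and 8032, 7891 and 8202 in H1975. The level was 3.23 ± 1.31 CPM in HCC827 and 77.9 ± 4.97 CPM in H1975 (SD, n = 3 each), a log2 fold of -4.60 ± 0.27 (edgeR adjusted p = 2.5e-07). Per kilobase of exon, the level of CD74 in Illumina data stood above 41.3% of 15476 protein-coding genes in HCC827 and above 89.9% in H1975. Exon length here is that of all annotated GENCODE exons of a gene merged, which can exceed the length of its transcripts.

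HLA-DR is the pair of HLA-DRA, a nearly invariant alpha chain, and a highly polymorphic beta chain, most often from HLA-DRB1. HLA-DRA (chromosome 6, 32439878 to 32445046, plus strand) had 12, 9 and 18 Illumina counts in HCC827, against 316, 270 and 265 in H1975. In ONT libraries it had 50, 23 and 54 counts in HCC827 and 559, 447 and 537 in H1975. The groups were wide apart in both platforms, with log2 folds of -3.64 ± 0.24 in Illumina data (edgeR adjusted p = 8.2e-09) and -3.26 ± 0.29 in ONT data (edgeR adjusted p = 4.4e-06).

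HLA-DRB1 (chromosome 6, 32577902 to 32589848, minus strand) went the other way. Its Illumina counts were 48, 18 and 70 in HCC827 and 9, 4 and 9 in H1975. Its ONT counts were 122, 104 and 160 in HCC827 and 41, 35 and 23 in H1975. By CPM no H1975 library reached an HCC827 library, and the log2 fold was 3.40 ± 0.35 in Illumina data (edgeR adjusted p = 7.71e-07) and 2.32 ± 0.30 in ONT data (edgeR adjusted p = 6.31e-05).

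DRB genes are near-identical copies that differ in number between haplotypes, so reads can be split or moved among them. HLA-DRB5, a further beta-chain gene, had 10, 4 and 16 Illumina counts in HCC827, against 5, 5 and 10 in H1975, a log2 fold of 1.35 ± 0.46 (edgeR adjusted p = 0.0164). Its ONT counts, 57, 17 and 44 in HCC827 and 35, 32 and 20 in H1975, overlapped by CPM and were not called (log2 fold 0.77 ± 0.40, edgeR adjusted p = 0.118). The pseudogene HLA-DRB6 had 0 ONT counts in all 3 HCC827 libraries and 21, 17 and 12 in H1975. Against a floor of 3 counts over the group, HLA-DRB6 was at least 13.3-fold lower in HCC827. Its Illumina counts, 1 in HCC827 and 12 in H1975 over 3 libraries each, gave a ratio of 0.143 (95% Clopper-Pearson interval 0.00334 to 0.966).

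With HLA-DRB5, HLA-DRB6 and HLA-DRB9 added to HLA-DRB1, the log2 fold of the sum was 2.36 ± 0.29 in Illumina data (edgeR adjusted p = 4.94e-06). In ONT data it was 1.44 ± 0.28 (edgeR adjusted p = 0.00104). The sum moved the same way as HLA-DRB1 but by less. How the alleles of each line align to the GRCh38 copy was not tested.

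The chains of HLA-DR were out of step between the lines. In Illumina libraries the count of HLA-DRA was 0.25 to 0.5 times that of HLA-DRB1 in HCC827, against 29.4 to 67.5 times in H1975. ONT libraries gave 0.221 to 0.41 in HCC827 and 12.8 to 23.3 in H1975. Set against the sum of HLA-DRB1, HLA-DRB5, HLA-DRB6 and HLA-DRB9, the Illumina ratio was 0.203 to 0.409 in HCC827 and 10.6 to 21.1 in H1975. The ONT ratio to this sum was 0.189 to 0.278 in HCC827 and 5.26 to 9.59 in H1975. No other DRB gene entered the sum. In both platforms and with either denominator the 2 lines lay on opposite sides of an equal count. These ratios are not corrected for gene length. Per kilobase of exon the chains lay close together in HCC827 Illumina data, with 0.537 CPM per kb for HLA-DRA and 0.632 for HLA-DRB1. In H1975 this level was 5.5 for HLA-DRA and 0.0588 for HLA-DRB1.

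**Figure D2:**
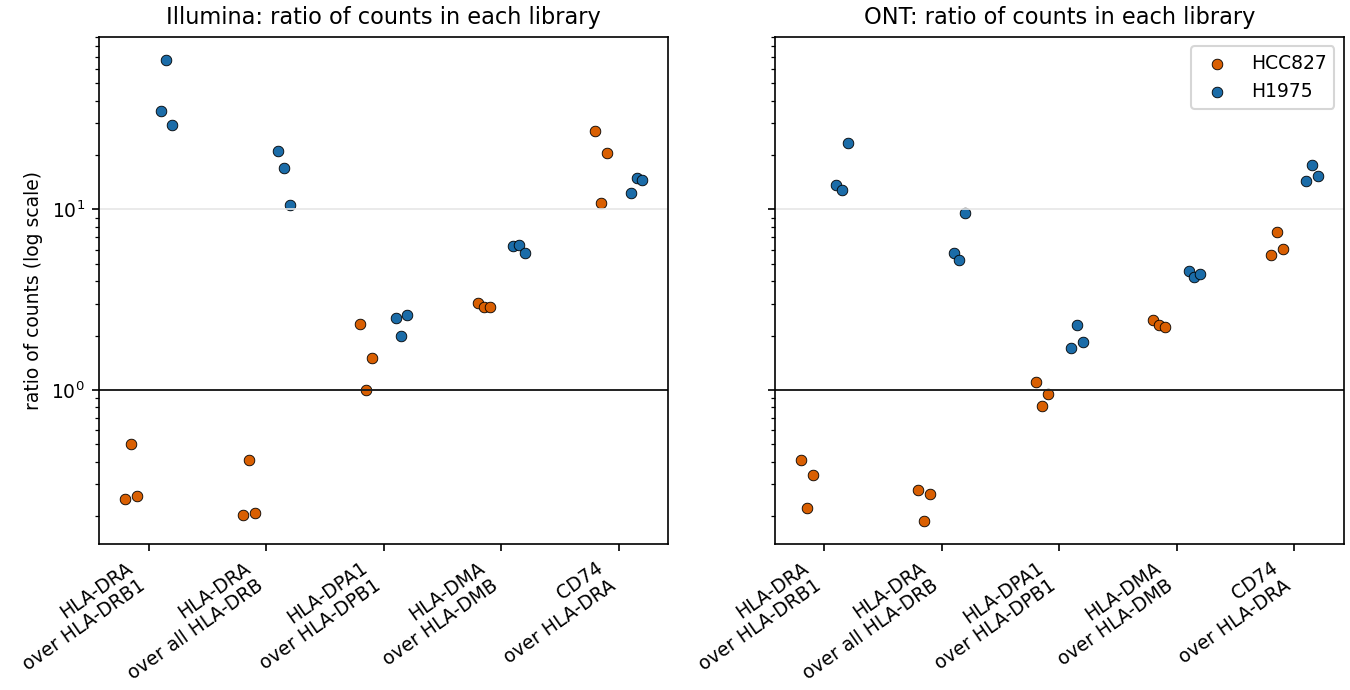
Ratio of counts of the named genes (log scale) in each library, Illumina at left and ONT at right; each point is a library and the horizontal line marks equal counts. Counts are not corrected for gene length. The ratios of HLA-DRA to HLA-DRB1 and to the summed DRB genes (HLA-DRB1, HLA-DRB5, HLA-DRB6 and HLA-DRB9) are below 1 in every HCC827 library and above 1 in every H1975 library. The ratio of HLA-DMA to HLA-DMB is lower in every HCC827 library.

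HLA-DP, another presenting pair, fell in both chains. HLA-DPA1, the alpha chain (chromosome 6, 33064569 to 33080775, minus strand), had 7, 2 and 9 Illumina counts in HCC827, against 189, 166 and 209 in H1975. HLA-DPB1, the beta chain (chromosome 6, 33075990 to 33089696, plus strand), had 3, 2 and 6 in HCC827, against 75, 83 and 80 in H1975. The groups stood apart for both genes, and the log2 folds were -4.18 ± 0.28 for HLA-DPA1 (edgeR adjusted p = 7.94e-09) and -3.62 ± 0.32 for HLA-DPB1 (edgeR adjusted p = 1.61e-07).

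In ONT libraries HLA-DPA1 had 39, 31 and 34 counts in HCC827 and 530, 511 and 503 in H1975. HLA-DPB1 had 35, 38 and 36 in HCC827 and 310, 222 and 272 in H1975. The log2 folds were -3.56 ± 0.19 for HLA-DPA1 (edgeR adjusted p = 1.05e-07) and -2.54 ± 0.21 for HLA-DPB1 (edgeR adjusted p = 2.29e-06). The genes lie head to head on opposite strands and share 96 exonic bases. The DP chains kept closer to each other than the DR chains: the count of HLA-DPA1 was 1.0 to 2.33 times that of HLA-DPB1 in HCC827 and 2.0 to 2.61 times in H1975 Illumina libraries, and 0.816 to 1.11 times in HCC827 and 1.71 to 2.3 times in H1975 ONT libraries.

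HLA-DQB1, the DQ beta chain (chromosome 6, 32659467 to 32668383, minus strand), was near the limit of detection. It had 1, 0 and 1 Illumina counts in HCC827 and 4, 0 and 0 in H1975, a ratio of 0.858 (95% Clopper-Pearson interval 0.0776 to 5.99), so no difference was detectable at this depth. Its ONT counts were 3, 0 and 1 in HCC827 and 6, 11 and 11 in H1975. It was too low for the main ONT test. With no filter on low counts the log2 fold was -2.43 ± 0.79 (edgeR adjusted p = 0.0101). With DESeq2, where all 10 members were tested in ONT data, HLA-DQB1 was not called. Without any 1 HCC827 replicate 9 members, HLA-DQB1 among them, were tested in ONT data and 8 were called. Its exons overlap an antisense gene, HLA-DQB1-AS1. HLA-DQA1, the DQ alpha chain, had 6 Illumina counts in HCC827 and 8 in H1975 over 3 libraries each, and 10 ONT counts in HCC827 against 17 in H1975. HLA-DQA2, HLA-DQB2, HLA-DRB9, HLA-DPA2, HLA-DPA3 and HLA-DPB2 had 0 to 17 counts in each library and were not tested.

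HLA-DM, the peptide editor, is made of a further pair of chains. HLA-DMA, its alpha chain (chromosome 6, 32948613 to 32969094, minus strand), had 395, 98 and 373 Illumina counts in HCC827 and 584, 610 and 475 in H1975. The levels were 11.8 ± 0.706 CPM in HCC827 and 13.3 ± 0.738 CPM in H1975 (SD, n = 3 each), and the log2 fold of -0.17 ± 0.11 did not pass (edgeR adjusted p = 0.158). ONT libraries gave 11.0 ± 2.76 CPM in HCC827 and 13.7 ± 0.348 CPM in H1975, again not called (log2 fold -0.32 ± 0.18, edgeR adjusted p = 0.15). Without ONT HCC827 replicate 3, the highest of its group, HLA-DMA was called lower in HCC827 (log2 fold -0.50, edgeR adjusted p = 0.0231).

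HLA-DMB, the beta chain (chromosome 6, 32934629 to 32941028, minus strand), had 130, 34 and 130 Illumina counts in HCC827, against 93, 96 and 83 in H1975. The level was 4.04 ± 0.333 CPM in HCC827 and 2.18 ± 0.0812 CPM in H1975 (SD, n = 3 each), without overlap, and the log2 fold was 0.89 ± 0.15 (edgeR adjusted p = 7.62e-05). In ONT libraries it had 422, 304 and 438 counts in HCC827 and 341, 310 and 317 in H1975, a log2 fold of 0.61 ± 0.20 (edgeR adjusted p = 0.0197). The ONT call did not hold without HCC827 replicate 3 or without any single H1975 replicate, where the adjusted p was 0.0564 to 0.0674.

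The count of HLA-DMA was 2.87 to 3.04 times that of HLA-DMB in HCC827 and 5.72 to 6.35 times in H1975 Illumina libraries. In ONT libraries it was 2.22 to 2.44 times in HCC827 and 4.24 to 4.57 times in H1975. The DM ratio was lower in every HCC827 library than in any H1975 library of the same platform. Both genes share exons with an annotated readthrough gene on their own strand, whose count was between 0.803 and 0.946 of their sum, so their counts are uncertain whatever the strand setting.

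HLA-DO, the modulator of HLA-DM, was scarce. HLA-DOA, its alpha chain (chromosome 6, 33004182 to 33009591, minus strand), had 1, 0 and 0 Illumina counts in HCC827 and 4, 10 and 3 in H1975, a ratio of 0.101 (95% interval 0.00241 to 0.644). In ONT libraries it had 1, 1 and 0 counts in HCC827 and 2, 1 and 5 in H1975, a ratio of 0.313 (95% interval 0.0324 to 1.57). HLA-DOB, its beta chain, had 29, 4 and 23 Illumina counts in HCC827, against 8, 7 and 4 in H1975, and was called higher in HCC827 (log2 fold 2.29 ± 0.36, edgeR adjusted p = 5.3e-05). With 21 ONT counts in HCC827 and 18 in H1975 it was not tested there, and it shares 599 exonic bases with a readthrough gene. These intervals, and the floors for 0 counts, hold counting error alone, as amplified reads are not independent molecules.

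**Figure D3:**
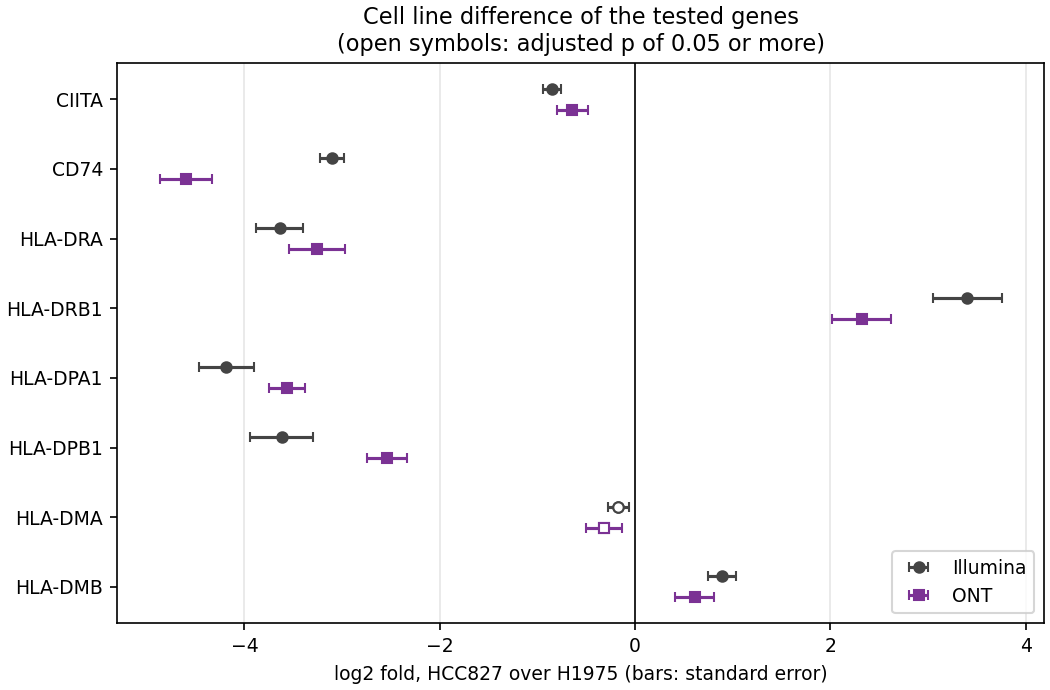
Log2 fold of HCC827 over H1975 with its standard error for the 8 tested genes, circles for Illumina and squares for ONT; open symbols were not called. Points left of 0 are lower in HCC827: CD74, HLA-DRA, HLA-DPA1 and HLA-DPB1 lie below -2.5, and HLA-DRB1 and HLA-DMB lie to the right. CIITA, whose counts are uncertain because its exons overlap other genes, lies between -0.85 and -0.64.

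The makeup of the class II transcripts differed with these changes. CD74 took 22.7% to 26.6% of the members' Illumina counts in HCC827 and 62.2% to 64.5% in H1975. In ONT libraries it took 9.68% to 14.0% in HCC827 and 66.2% to 68.9% in H1975. HLA-DMA took 38.8% to 44.3% of the ONT counts in HCC827, where it outnumbered CD74, and 11.5% to 12.8% in H1975. All 10 members together summed to 41.6 to 47.1 CPM in HCC827 and 140.0 to 159.0 CPM in H1975 Illumina libraries. These shares are of counts and are not corrected for gene length.

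**Figure D4:**
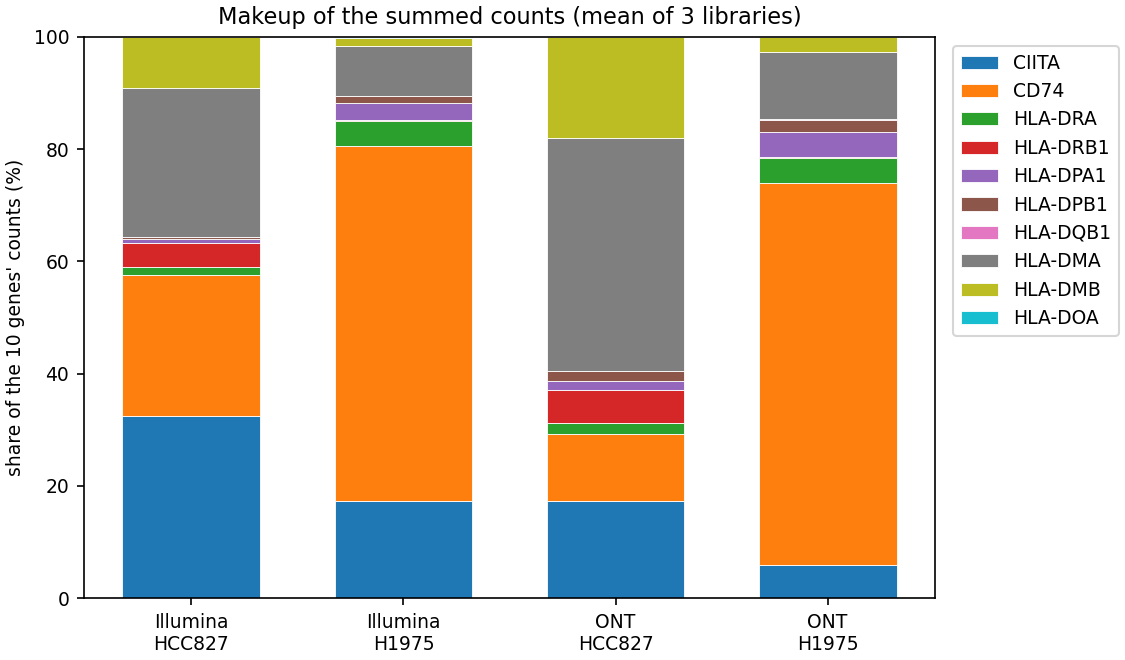
Share of each gene (%) in the summed counts of the 10 genes, as the mean of 3 libraries for each line and platform. CD74 makes up 25.0% in HCC827 and 63.2% in H1975 Illumina libraries, and 11.9% in HCC827 and 68.0% in H1975 ONT libraries.

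Per kilobase of exon, HLA-DMA led the members in HCC827 Illumina libraries with 4.69 CPM per kb, followed by CD74 with 2.46, HLA-DMB with 0.875, CIITA with 0.637, HLA-DRB1 with 0.632 and HLA-DRA with 0.537. In H1975 the order of this level was CD74 with 20.97 CPM per kb, HLA-DRA with 5.51, HLA-DMA with 5.29, CIITA with 1.15, HLA-DPA1 with 0.796, HLA-DMB with 0.473 and HLA-DPB1 with 0.367. Several neighbours in these orders, such as CIITA, HLA-DRB1 and HLA-DRA in HCC827 or HLA-DRA and HLA-DMA in H1975, lay closer than the spread of their own libraries. HLA-DRB1 closed the tested members in H1975 with 0.0588 CPM per kb, as HLA-DPB1 did in HCC827 with 0.0334. The merged exon lengths ran from 1244 bases for HLA-DRA to 22553 for CIITA, so these orders also depend on how much exon is annotated.

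PacBio libraries were too shallow for most members. CD74 had 0, 1 and 0 counts in HCC827 and 5, 7 and 3 in H1975, a ratio of 0.0728 (95% interval 0.00173 to 0.473). HLA-DMA had 2, 1 and 0 counts in HCC827 and 2, 2 and 2 in H1975, and CIITA 0, 1 and 0 in HCC827 and 1, 2 and 1 in H1975. The other 7 members had 0 counts in all 6 libraries, which allows a mean level of up to 68.5 CPM in HCC827 and 62.7 CPM in H1975 (3 counts over the group). No member entered the PacBio test, in which 22.9% of 901 genes were called. HCC827 replicates 1 and 2, and H1975 replicates 2 and 3, differed by less than the sampling noise, so each pair may stand for 1 sample.

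The size of the cell line difference was also compared between ONT and Illumina in 1 fit of 12 libraries. Of the 8 members CD74 alone was called: its ONT fold minus its Illumina fold was -1.34 ± 0.28 (edgeR adjusted p = 0.00513), where 7.16% of 29395 genes were called. The difference for HLA-DPB1 was 1.23 ± 0.42 (edgeR adjusted p = 0.095) and for HLA-DRB1 -0.93 ± 0.52 (edgeR adjusted p = 0.342), and neither passed. The count of CD74 was 5.58 to 7.52 times that of HLA-DRA in HCC827 ONT libraries and 10.9 to 27.3 times in HCC827 Illumina libraries. In H1975 it was 14.4 to 17.7 times in ONT and 12.4 to 15.0 times in Illumina libraries. The direction of CD74 was the same in both platforms. The joint fit scales its 12 libraries together, so its values need not equal the difference between the separately fitted folds. With RLE scaling the CD74 value was -1.44. The platforms differ in input, library chemistry and instrument at once, and these cannot be told apart.

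The proteins that hold CIITA on class II promoters did not fall together. Of 7 enhanceosome genes, 3 were called higher and 3 lower in HCC827 in each platform, with a median log2 fold of -0.09 in Illumina and -0.14 in ONT data. Calls in this list and in those below stand beside 74.1% of all tested genes called in Illumina and 62.7% in ONT data. No list was tested as a set. RFX5, the DNA-binding subunit of RFX, fell (log2 fold -0.79 ± 0.10 in Illumina, edgeR adjusted p = 4.77e-06, and -0.72 ± 0.16 in ONT data, edgeR adjusted p = 0.00261). Its partners rose: the Illumina log2 fold was 1.10 ± 0.21 for RFXAP and 1.09 ± 0.13 for RFXANK, and the ONT log2 fold was 0.70 ± 0.25 for RFXAP and 0.66 ± 0.14 for RFXANK. NFYC, a subunit of the Y-box factor NF-Y, rose (log2 fold 1.82 ± 0.09 in Illumina and 1.45 ± 0.17 in ONT data), while NFYA and NFYB fell in both. CREB1 was not called in either platform.

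Interferon gamma induces CIITA through IFNGR1, JAK1, JAK2 and IRF1, among others. Of 10 genes of this pathway, 3 were higher and 5 lower in Illumina data, and 4 higher and 4 lower in ONT data, with median log2 folds of -0.27 and -0.24. IFNGR1, the ligand-binding receptor chain, had 13.3 ± 1.48 CPM in HCC827 and 39.1 ± 2.32 CPM in H1975 Illumina libraries, a log2 fold of -1.53 ± 0.10 (edgeR adjusted p = 9.95e-09), and -1.97 ± 0.25 in ONT data (edgeR adjusted p = 4.82e-05). The kinase JAK1 rose (log2 fold 0.94 ± 0.10 in Illumina and 1.30 ± 0.23 in ONT data). PTPN2, a phosphatase that restrains this signalling, rose (log2 fold 0.78 ± 0.09 in Illumina and 0.57 ± 0.17 in ONT data). IRF1 rose (log2 fold 0.54 ± 0.11 in Illumina and 0.52 ± 0.18 in ONT data).

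JAK2, the receptor's other kinase, had opposite directions in the platforms. It had 299, 681 and 192 ONT counts in HCC827 and 61, 48 and 92 in H1975, a log2 fold of 2.84 ± 0.42. It had 175, 32 and 121 Illumina counts in HCC827 and 303, 329 and 291 in H1975, a log2 fold of -0.74 ± 0.13. The difference between the platforms' folds was 3.76 ± 0.49 (edgeR adjusted p = 0.000101), so no direction is given for JAK2.

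**Figure D5:**
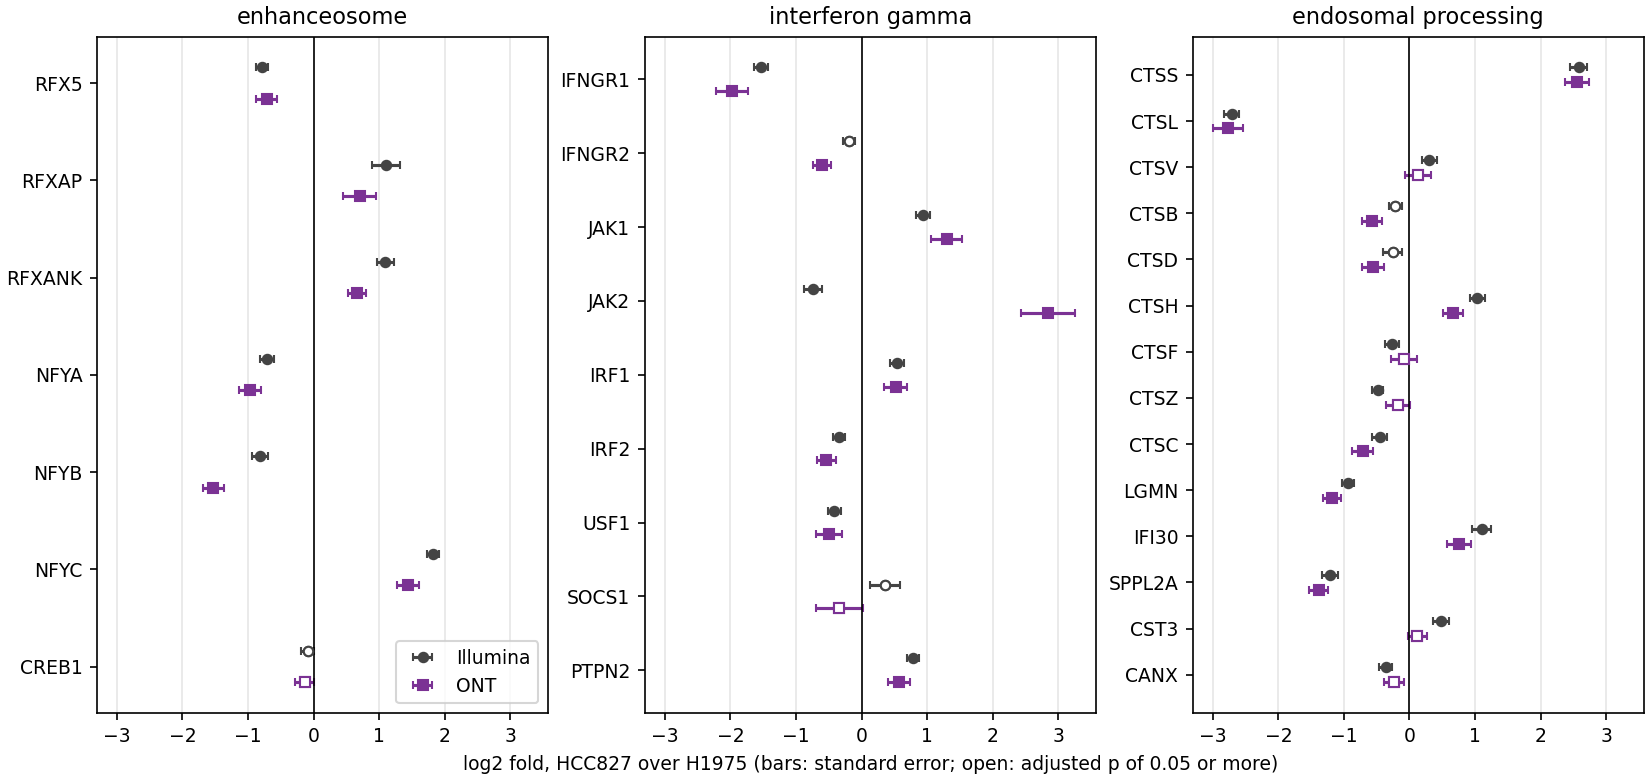
Log2 fold of HCC827 over H1975 with its standard error for genes of the enhanceosome, interferon gamma signalling and endosomal processing lists, circles for Illumina and squares for ONT; open symbols were not called. Each panel holds genes on both sides of 0, and JAK2 lies at 2.84 in ONT and -0.74 in Illumina data.

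Chromatin regulators and repressors known to act on CIITA were mixed: of 13, 6 were higher and 4 lower in Illumina data, and 5 higher and 1 lower in ONT data, with median log2 folds of 0.22 and 0.26. DNMT3A, a DNA methyltransferase, rose (log2 fold 1.10 ± 0.11 in Illumina and 1.29 ± 0.17 in ONT data), as did the deacetylase HDAC3 (log2 fold 0.93 ± 0.13 in Illumina and 0.78 ± 0.22 in ONT data). EP300, an acetyltransferase, fell in Illumina data (-0.92 ± 0.09, edgeR adjusted p = 7.13e-07) and had -0.39 ± 0.17 in ONT data (edgeR adjusted p = 0.0592). PacBio counts of EP300 were 0, 1 and 0 in HCC827 and 0, 9 and 8 in H1975, where the groups overlap and the higher counts are those of the close pair of libraries described above.

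Among 14 endosomal processing genes 5 were higher and 7 lower in Illumina data, and 3 higher and 6 lower in ONT data, with median log2 folds of -0.26 and -0.20. The 2 proteases best known for cutting CD74 went opposite ways. CTSS, the main protease of the late CD74 fragment in antigen-presenting cells, had 1550, 303 and 1489 Illumina counts in HCC827, against 291, 358 and 273 in H1975, a log2 fold of 2.58 ± 0.13 (edgeR adjusted p = 3.37e-10). The ONT log2 fold of CTSS was 2.55 ± 0.19 (edgeR adjusted p = 1.14e-06), and PacBio libraries held 8 counts in HCC827 and 0 in H1975.

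CTSL, which does this work in thymic epithelium of the mouse, fell (log2 fold -2.71 ± 0.11 in Illumina and -2.76 ± 0.23 in ONT data). SPPL2A, which clears the last membrane stub of CD74, fell (log2 fold -1.21 ± 0.13 in Illumina and -1.39 ± 0.15 in ONT data). IFI30, a thiol reductase that opens disulfide bonds of antigens, rose (log2 fold 1.10 ± 0.15 in Illumina and 0.75 ± 0.18 in ONT data).

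Of 11 trafficking and ubiquitination genes 1 was higher and 6 lower in Illumina data, and 1 higher and 5 lower in ONT data, with median log2 folds of -0.23 and -0.30. In Illumina data 63.6% of them were called, beside 74.1% of all genes tested. In ONT data it was 54.5%, beside 62.7%. CD82, a tetraspanin of class II compartments, fell (log2 fold -2.57 ± 0.13 in Illumina and -2.57 ± 0.14 in ONT data). MARCHF8, a ubiquitin ligase that removes class II from the surface, fell (log2 fold -0.95 ± 0.10 in Illumina and -0.94 ± 0.22 in ONT data).

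CD74 at the cell surface is also the receptor of the cytokine MIF and signals with CD44. Of 6 such genes 4 were tested, with 1 higher and 2 lower in each platform and median log2 folds of -0.59 in Illumina and -0.44 in ONT data. MIF rose (log2 fold 0.75 ± 0.13 in Illumina and 0.41 ± 0.12 in ONT data), while CD44 fell (log2 fold -1.30 ± 0.09 in Illumina and -0.97 ± 0.13 in ONT data). ACKR3, an atypical chemokine receptor that also binds MIF, had 9, 15 and 3 ONT counts in HCC827 and 43, 24 and 30 in H1975. Its Illumina counts were 0, 0 and 1 in HCC827 and 63, 84 and 49 in H1975, a ratio of 0.00875 (95% interval 0.000221 to 0.0493), and its folds differed between the platforms by 5.11 ± 0.94 on the log2 scale (edgeR adjusted p = 0.00162).

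A list of T cell costimulation and adhesion genes holds genes that help activate T cells as well as CD274, PDCD1LG2 and LGALS9, which restrain them. Of its 10 genes 9 were tested, with 2 higher and 7 lower in Illumina data and 2 higher and 6 lower in ONT data, and median log2 folds of -0.40 and -0.74. CD40, the receptor for T cell help, fell (log2 fold -4.61 ± 0.20 in Illumina and -4.77 ± 0.18 in ONT data), as did CD80, a ligand of CD28 (log2 fold -2.26 ± 0.26 in Illumina and -1.88 ± 0.32 in ONT data). ICOSLG, the ligand of ICOS, rose (log2 fold 2.78 ± 0.19 in Illumina and 2.58 ± 0.26 in ONT data).

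Genes that neighbour the members in the MHC were mixed. Of 13 neighbours 11 were tested, with 6 higher and 3 lower in Illumina data and 6 higher and 2 lower in ONT data, and median log2 folds of 0.30 and 0.49. HSD17B8, an enzyme of fatty acid and steroid metabolism, rose (log2 fold 2.68 ± 0.14 in Illumina and 2.04 ± 0.20 in ONT data). PSMB8, an immunoproteasome subunit of the class I pathway, rose (log2 fold 1.21 ± 0.09 in Illumina and 1.00 ± 0.16 in ONT data). COL11A2, a collagen chain, fell in Illumina data (log2 fold -1.97 ± 0.33) and was too low for the ONT test. Counts of RFX5, RFXANK, NFYA, NFYC, JAK1, IRF1, HDAC3, EP300, IFI30, SPPL2A, CD82, MIF, CD44, CD80, PSMB8, KRT8, KRT18 and CDH1 are uncertain where their exons overlap another counted gene.

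Markers of leukocytes, the usual source of class II in tissue, were set beside these values. The B cell marker MS4A1 had 0 counts in every library, and TYROBP had 0 in every Illumina library. PTPRC, the leukocyte antigen CD45, had 14 Illumina counts in HCC827 and 17 in H1975 over 3 libraries each. The 11 markers summed to 1050 to 1330 CPM in HCC827 and 297 to 320 CPM in H1975 Illumina libraries. CSF1R gave nearly all of this sum, with 1170 ± 141 CPM in HCC827 and 295 ± 11.1 CPM in H1975. ONT libraries gave CSF1R 3601 ± 732 CPM in HCC827 and 977 ± 38.5 CPM in H1975. In PacBio libraries CSF1R was far lower, with 62.1 ± 56.6 CPM in HCC827 and 145 ± 27.3 CPM in H1975. It had 3 PacBio counts in HCC827 and 7 in H1975, a ratio of 0.468 (Clopper-Pearson interval 0.0781 to 2.05). These counts settle no direction, and the cause of the lower PacBio level was not tested. The other 10 summed to 4.06 to 5.60 CPM in HCC827 and 11.7 to 13.6 CPM in H1975 Illumina libraries, and to 2.21 to 3.22 CPM in HCC827 and 9.09 to 10.3 CPM in H1975 ONT libraries.

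Of the leukocyte markers tested in Illumina data, 2 of 5 were higher and 3 lower in HCC827, and in ONT data 2 of 6 were higher and 4 lower. CD14 (log2 fold -2.80 ± 0.18 in Illumina data) fell along with CD74, HLA-DRA and the HLA-DP chains. Of 3 endothelial markers, VWF was higher and PECAM1 lower in both platforms. The 3 summed to 3.15 to 3.66 CPM in HCC827 and 4.09 to 4.88 CPM in H1975 Illumina libraries. The part of cells other than the named lines in the class II difference was not tested, and in bulk RNA fewer cells that make a transcript and less of it per cell cannot be told apart.

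The genes whose pattern was most like CD74 were sought by the distance between log2 CPM profiles over the 12 Illumina and ONT libraries, each platform centred. Among 14623 protein-coding genes with counts in all 12, AKR1C1 (distance 1.21), AADAT (1.28) and H2BC5 (1.36) came first. Their log2 folds were -2.61 ± 0.19 for AKR1C1, -3.33 ± 0.13 for AADAT and -3.07 ± 0.12 for H2BC5 in Illumina data. In ONT data they were -4.02 ± 0.24 for AKR1C1, -3.94 ± 0.21 for AADAT and -3.87 ± 0.15 for H2BC5. No class II chain was among the 3.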

How the data were processed

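The authors deposited raw counts per gene, whole numbers with no normalization, separately for each library. GRCh38, minimap2 2.17 and featureCounts are named in the submitters' processing notes, while the sources used here give neither strand setting nor handling of reads with several matches. PacBio counts come from clustered alignments, per the file headers. Genes were matched by Ensembl identifier without version to GENCODE symbols (58207 of 58444 genes in all files). Synthetic spike-ins stayed out of library sizes. edgeR 4.0.16 (R 4.3.3) was run within each platform with TMM scaling, filterByExpr and a robust quasi-likelihood fit on all genes, with Benjamini-Hochberg adjustment. An interaction term over 12 libraries tested the ONT against the Illumina fold; per the labels both platforms read the same RNA samples (correlations of deviations 0.0201 to 0.429). The scripts were tested on simulated data. Alternatives were DESeq2 1.42.0, RLE scaling, no filter, each replicate left out, a replicate block, and summed copies or library pairs. Offsets and gene sets in the search for genes like CD74, and the leukocyte sum without CSF1R, were chosen after seeing the data. Members and lists were chosen with earlier results of these data known. Named were all members and other class II genes, fixed pathway genes, and the 3 called genes of each list with the largest Illumina fold, of which some are not reported here. HLA-DRA and CIITA had no promoter entry.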

Additional observations from a re-analysis of the deposited data

Results flagged for a closer look

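CD74 was singled out because its cell line difference was not the same on 2 platforms. The ONT log2 fold of HCC827 over H1975 minus the Illumina log2 fold was -1.34 ± 0.28 (edgeR adjusted p = 0.00513). This value comes from the joint fit of 12 libraries, which has a scaling of its own. In each platform's own scaling CD74 had 3.23 ± 1.31 CPM in HCC827 and 77.9 ± 4.97 CPM in H1975 ONT libraries. It had 11.1 ± 1.56 CPM in HCC827 and 94.9 ± 7.18 CPM in H1975 Illumina libraries (SD, n = 3 each). CD74 was lower in HCC827 in all 3 libraries of each platform. Differences of this kind were also called for JAK2 (3.76 ± 0.49, edgeR adjusted p = 0.000101), ACKR3 (5.11 ± 0.94, edgeR adjusted p = 0.00162), EP300 (0.68 ± 0.18, edgeR adjusted p = 0.0282) and CD44 (0.49 ± 0.14, edgeR adjusted p = 0.0476). These are values of the joint fit too, and those of EP300 and CD44 exceed the difference between their separately fitted folds.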

How the results depend on the processing

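In Illumina data 7 members were called under every alternative run, except 8 with no filter. In ONT data 6 to 8 were called. CD74 was the 1 member called for the difference between platforms under every alternative, with a log2 value of -1.57 to -1.15 and an adjusted p of 8.13e-08 to 0.0463. With no filter on low counts 1 member, CD74, was called in PacBio data (log2 fold -3.50 ± 0.81, edgeR adjusted p = 0.00464, 3 members tested), against 0 otherwise. Replicate numbers were shared by the lines, but same-numbered libraries of the lines did not all deviate together (correlations of -0.0972, -0.0401 and 0.14 in Illumina data). With the replicate block, 7 members were called in Illumina and 7 in ONT data. Over all genes the replicate block gave 18793 calls in Illumina, 16320 in ONT and 50 in PacBio data, against 19061, 17163 and 206 without it, and blocking by RNA sample gave 3109 calls for the platform difference, against 2105.

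PacBio calls over all genes were 971 with no filter and 63 with the close library pairs summed, and 24 to 336 with 1 replicate left out. Calls for the platform difference were 1101 to 2765 with 1 replicate left out. The platform difference of HLA-DMA, 0.01 and not called, changed sign to -0.083 with DESeq2 and -0.089 with RLE scaling, and ran from -0.12 to 0.10 with 1 replicate left out. DESeq2 and RLE scaling each lowered the platform difference of every tested member, as for CIITA from 0.37 to 0.26. The cause of the sign changes was not tested. The genes most like CD74 changed with the offset added to CPM over the same 14623 genes: H2BC5 remained among the first 3 with 0.05, where AKR1C2 led, and none of the 3 remained with 0.5, where TNNI3, MGP and CD40 led. Over 15045 genes, counts of 0 included, DYNLRB2, IL12B and AKR1C2 led with 0.05, and CSTA, CCL2 and TNNI3 with 0.5. Depth limits HLA-DQB1, HLA-DOA and all PacBio values.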
